A study of Mus musculus with 12 samples.

Results

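CC chemokine mRNAs were followed in macrophages grown from mouse bone marrow. The 10 members were the ligands Ccl2, Ccl3, Ccl4, Ccl5, Ccl6, Ccl7, Ccl9, Ccl12 and Ccl22 and the receptor-like gene Ccrl2, taken by name from a table of 47937 genes, and all 10 had enough reads to be tested. Bone marrow of C57BL/6 mice was cultured for 7 days with CSF-1 (20 ng/ml), the growth factor that drives macrophage differentiation, and this was common to every group. The 4 groups, of 3 libraries each, were resting macrophages without further additions (M0), macrophages given IFNγ (50 ng/ml) and LPS (20 ng/ml), labelled 18 h (IFNγ + LPS), and each of these with the DGAT1 inhibitor T863 (DGAT1i, 50 μM), also labelled 18 h. DGAT1 carries out the last step of triacylglycerol synthesis, and the comparisons ask how its inhibition alters resting and activated macrophages. For M0 with DGAT1i, the descriptions of replicates 2 and 3 give the compound as T864 and T865, whereas the source field of both says T863, and both were read as T863. The labels name no solvent control and do not say whether libraries of a group came from separate mice, so that p-values measure the spread between these libraries, which may be technical. The labels give no time for M0, which bears on every comparison with it; the study's methods describe M0 as kept in CSF-1 medium beside the stimulated cells. A single inhibitor was used at a single dose, and effects of it on other targets cannot be told apart from inhibition of DGAT1.

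Chemokines are small secreted proteins that bind receptors on leukocytes and direct their migration. CC chemokines are the family whose first cysteines are adjacent, and activated macrophages are one of their main sources. Ccl2, Ccl7 and Ccl12 are ligands of CCR2 and draw monocytes from the blood. Ccl3, Ccl4 and Ccl5 draw macrophages and effector T cells, and Ccl3 and Ccl5 act on CCR1. Ccl6 and Ccl9 are ligands of CCR1 that rodent macrophages make without stimulation. Ccl22 acts on CCR4 of T cells and is known as a product of dendritic cells as well as macrophages. Ccrl2 is a receptor-like membrane protein that binds chemerin and does not signal as chemokine receptors do.

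Of the 10 genes, 8 lie on chromosome 11 (GRCm38, GENCODE release M21). Ccl2 (82035571 to 82037453), Ccl7 (82045712 to 82047525) and Ccl12 (82101845 to 82103400) are neighbours within 67.83 kb. Ccl5 (83525778 to 83530518), Ccl9 (83572919 to 83578636), Ccl6 (83587882 to 83593087), Ccl3 (83647844 to 83649355) and Ccl4 (83662584 to 83664683) lie within 138.906 kb of each other, 1422.377 kb further along. Ccl22 is on chromosome 8 (94745590 to 94751699) and Ccrl2 on chromosome 9 (111054486 to 111057519). The values are reads over the exons of these genes. On the opposite strand, Gm17268 overlaps Ccl2 and E230016K23Rik overlaps Ccl6, with 0 shared exon bases in both cases, and they had 0 and 5 reads in all libraries. Ccl9 transcripts share stretches of at least 100 bases at 95% identity or more with transcripts of 10 other genes, the closest being 154 bases at 96.1%, and how the authors' counting placed such reads is not given, so that the level of Ccl9 is less certain than that of the other members, which had 0 such copies.

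Promoter sequences from RefSeq (GRCm38.p6), the 250 bases before the start, were found for 6 of the 10 members, and those of Ccl2, Ccl4, Ccl5 and Ccl7 were not used here. The sequences below are shown because their genes bear the main contrasts of the data: Ccrl2, strongly induced and lowered by DGAT1i; Ccl3, lowered by DGAT1i in activated cells and raised in resting cells; and the neighbours Ccl9 and Ccl6, of which Ccl9 fell with DGAT1i in M0. They are given 5′ to 3′ on the minus strand, on which all 4 genes lie, with letters matching a searched motif in capitals. The positions are chr9:111057519-111057768 for the first of 3 starts of Ccrl2, chr11:83649379-83649628 for Ccl3, chr11:83578637-83578886 for Ccl9 and chr11:83593088-83593337 for Ccl6.
Ccrl2: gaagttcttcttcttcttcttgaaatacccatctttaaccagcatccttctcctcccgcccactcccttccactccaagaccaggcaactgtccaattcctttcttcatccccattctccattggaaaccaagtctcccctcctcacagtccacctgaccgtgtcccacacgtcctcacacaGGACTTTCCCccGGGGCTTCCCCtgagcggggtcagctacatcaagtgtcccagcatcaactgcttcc
Ccl3: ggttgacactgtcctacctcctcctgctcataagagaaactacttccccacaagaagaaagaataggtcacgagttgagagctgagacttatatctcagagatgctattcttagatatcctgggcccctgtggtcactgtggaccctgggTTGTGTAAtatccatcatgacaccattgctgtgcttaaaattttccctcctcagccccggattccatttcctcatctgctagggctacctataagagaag
Ccl9: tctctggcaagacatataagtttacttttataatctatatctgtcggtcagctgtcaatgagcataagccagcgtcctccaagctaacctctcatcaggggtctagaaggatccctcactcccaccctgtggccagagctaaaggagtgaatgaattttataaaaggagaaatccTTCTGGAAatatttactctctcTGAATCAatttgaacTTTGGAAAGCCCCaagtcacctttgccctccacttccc
Ccl6: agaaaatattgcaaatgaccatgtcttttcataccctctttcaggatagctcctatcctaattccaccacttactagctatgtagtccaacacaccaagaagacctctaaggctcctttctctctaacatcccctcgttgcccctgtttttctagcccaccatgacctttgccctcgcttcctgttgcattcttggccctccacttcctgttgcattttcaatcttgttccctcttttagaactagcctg
Motifs were searched on both strands as fixed letters: GGG and CC with any 5 bases between them for NF-kB, GAAA and GAAA with any 2 bases between them for the interferon response element ISRE, TTCNNNGAA for GAS, TGANTCA for AP-1 and TTNNGNAA for C/EBP. The Ccrl2 sequence holds the NF-kB letters at 68 to 59, 56 to 47 and 55 to 46 bases before the start. The last 2 of these overlap, and each matches on both strands at the same bases, which gives 5 matches when strands are counted apart. The Ccl3 sequence holds a C/EBP match from 100 to 93 bases before the start. That of Ccl9 holds AP-1 at 53 to 47, C/EBP at 75 to 68, and a C/EBP and an NF-kB match that overlap between 38 and 26 bases before the start. That of Ccl6 holds none of these letters. Ccl22 has 2 NF-kB matches, and Ccl12 and the other starts of Ccrl2 have none. Among all 32851 promoters of this length, 45.8% hold the NF-kB letters, 36.8% C/EBP, 7.02% GAS, 6.75% AP-1 and 2.98% ISRE, and a match is a description of the sequence only.

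The libraries held 4996014 to 6621671 reads on genes. Values are given as CPM, the read count scaled to library size with edgeR's TMM factors, and 1 CPM was worth 4.283 to 7.578 reads, so that few reads lie behind any member below 1 CPM. Where a ratio of reads is given with a counting interval, the interval covers counting error only and not the spread between libraries. Genes were tested by the quasi-likelihood test of edgeR, p-values were adjusted by the Benjamini-Hochberg method over all 11760 genes tested, and 0.05 was the threshold. Macrophage markers were high throughout, with Adgre1, Csf1r, Cd68, Itgam, Mertk, Fcgr1 and Cd14 summing to 4094 to 4124 CPM in M0, 4107 to 4188 CPM in M0 with DGAT1i, 5590 to 5894 CPM in IFNγ + LPS and 5066 to 5488 CPM in IFNγ + LPS with DGAT1i. Single genes of this list moved in both directions. From M0 to IFNγ + LPS, 3 of the 7 were higher and 4 lower without overlap. A list of 9 neutrophil genes summed to 31.6 to 38.7 CPM in M0, 22.9 to 29.0 CPM in M0 with DGAT1i, 15.2 to 25.5 CPM in IFNγ + LPS and 63.0 to 81.0 CPM in IFNγ + LPS with DGAT1i. S100a8 and S100a9 made up most of the last of these, and the granule genes Ngp (0.211 to 1.98 CPM in IFNγ + LPS, 8.14 to 11 CPM with DGAT1i) and Ltf (0.211 to 1.69 and 2.71 to 6.77 CPM) were higher there too, while Ly6g and Retnlg were at 0 in all libraries. A list of 7 dendritic cell genes summed to 0.266 to 0.835 CPM in M0, 12.4 to 17.5 CPM in IFNγ + LPS and 3.55 to 4.44 CPM in IFNγ + LPS with DGAT1i, mostly through Xcr1 and Clec9a, while Cd209a and Siglech were at 0 in both stimulated groups. Markers of T, B and NK cells, eosinophils, mast cells and fibroblasts summed to at most 2.11 CPM per list.

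In M0, Ccl6 and Ccl9 were the leading CC ligand mRNAs. Per kb of exon, Ccl6 stood at 175 ± 11.9 and Ccl9 at 128 ± 10.6 CPM per kb (SD, n = 3). The length is that of all annotated exons of a gene joined, 1795 bases for Ccl6 and 3045 for Ccl9. Without it the order was reversed, with Ccl9 at 389 ± 32.2 and Ccl6 at 315 ± 21.3 CPM. Ccl3 (49.4 ± 4.41 CPM per kb), Ccl4 (47.4 ± 3.18) and Ccl2 (43.3 ± 6.2) followed, and these 3 did not differ beyond their spread. Ccl7 stood at 18.7 ± 5.08 CPM per kb. Ccrl2 (2.34 ± 0.204 CPM per kb) and Ccl12 (2.18 ± 2.23) were low, and Ccl5 and Ccl22 were nearly absent, with 5 and 4 reads over the 3 libraries. As a share of the summed CPM per kb of all CC ligands, Ccl6 made up 37.6% ± 2.25 and Ccl9 27.4% ± 1.42 (SD, n = 3).

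**Figure D1:**
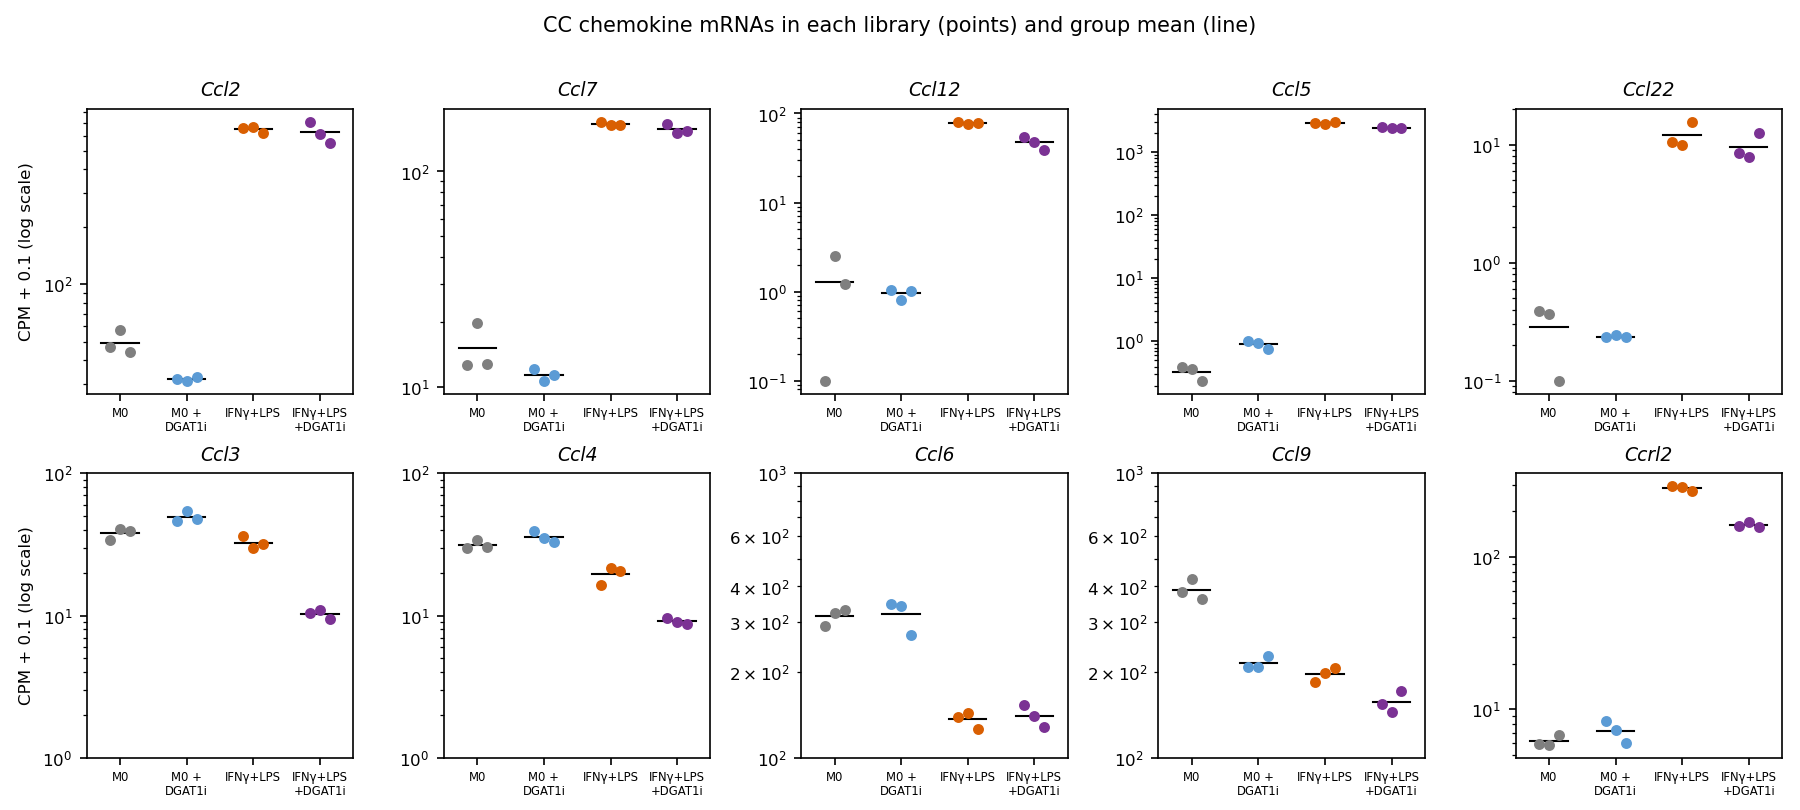
Levels of the 10 members in each library, as CPM plus 0.1 on a log scale that differs between panels, with points for the 3 libraries of a group and a line at the group mean. Ccl5 runs from 5 reads over the M0 libraries to 2756 to 3023 CPM in IFNγ + LPS, and Ccl3 in IFNγ + LPS with DGAT1i lies at 9.34 to 10.8 CPM, below the other 3 groups.

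With IFNγ + LPS the CCR2 ligands, Ccl5, Ccl22 and Ccrl2 rose, 6 of 10 members, and Ccl3, Ccl4, Ccl6 and Ccl9 fell, 4 of 10. Of the 6, Ccl5, Ccl12 and Ccl22 passed the filter on low counts only through the stimulated groups, so that they could only come out higher. They are included in the counts and the median of this paragraph. Ccl2, Ccl7 and Ccrl2 rose without this limit. Ccl3 overlapped between the groups, and 3 of 10 fell with DESeq2, at a threshold of 0.01 and without M0 replicate 2 or 3 or IFNγ + LPS replicate 2 or 3. Of all genes tested, 37.1% rose and 36.2% fell, 73.3% in all. The median log2 fold change was 3.59 over the members and 0.01 over all genes tested. Groups did not overlap for 9 of the 10 members, 6 higher and 3 lower, beside 38.2% and 37.1% of all genes. The 6 and 4 rest on each gene's own test, and in bulk RNA fewer cells of a type and less RNA per cell cannot be told apart.

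The CCR2 ligands rose together. Ccl2, the main attractant of monocytes, was at 46.5, 57.3 and 44.0 CPM in M0 and at 661, 666 and 617 CPM in IFNγ + LPS. All stimulated libraries were above all resting ones, a 13.1-fold rise (log2 fold change 3.71, SE 0.10, adjusted p = 7.16e-17). Its neighbour Ccl7 went from 12.6, 19.7 and 12.7 CPM to 170, 165 and 164 CPM, a log2 fold change of 3.46 (SE 0.10, adjusted p = 9.62e-35). Ccl12, a mouse CCR2 ligand, had 0, 18 and 8 reads in M0, 0, 2.40 and 1.11 CPM, against 80.6, 76.9 and 77.4 CPM in IFNγ + LPS. The log2 fold change of Ccl12 was 6.00 (95% interval 4.98 to 7.01; adjusted p = 9.78e-12), and 7.06 without M0 replicate 2.

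Ccl5, a ligand of CCR1 and CCR3, had the largest rise of the members. It had 2, 2 and 1 reads in M0, and 2837, 2756 and 3023 CPM in IFNγ + LPS. The ratio of scaled reads was 12400 (95% counting interval 5310 to 38200; adjusted p = 2.10e-61). Ccl22, the CCR4 ligand, went from 4 reads over the M0 libraries to 10.5, 9.72 and 15.5 CPM, a ratio of 64.5 (95% counting interval 24.8 to 239; adjusted p = 1.44e-19). The summed dendritic cell genes also went from at most 0.835 to at least 12.4 CPM between these groups, and their part in the rise of Ccl22 and Ccl5 was not tested. Ccrl2, the chemerin-binding receptor-like gene, was at 5.81, 5.73 and 6.68 CPM in M0 and 293, 290 and 273 CPM in IFNγ + LPS (log2 fold change 5.55, SE 0.12, adjusted p = 2.26e-49).

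The CCR1 ligands of resting macrophages fell. Ccl6 went from 290, 323 and 330 CPM in M0 to 139, 144 and 126 CPM, a log2 fold change of −1.21 (SE 0.10, adjusted p = 4.79e-08). Ccl9 went from 381, 425 and 362 CPM to 184, 199 and 207 CPM, a log2 fold change of −0.98 (SE 0.06, adjusted p = 8.59e-20). Neither overlapped between the groups. The summed neutrophil genes were also lower without overlap, 31.6 to 38.7 CPM in M0 and 15.2 to 25.5 CPM in IFNγ + LPS. Of the 7 macrophage genes, Csf1r, Cd68, Itgam and Cd14 were lower and Adgre1, Mertk and Fcgr1 higher, all without overlap. The part of these genes in the falls of this paragraph was not tested. Ccl4, an attractant of macrophages and T cells, went from 29.9, 33.7 and 30.2 CPM to 16.4, 21.4 and 20.4 CPM (log2 fold change −0.68, SE 0.11, adjusted p = 3.41e-07). Its partner Ccl3 was at 34.0, 40.2 and 39.4 CPM in M0 and 35.8, 29.5 and 31.7 CPM in IFNγ + LPS, with overlap between the groups. Its log2 fold change of −0.24 (SE 0.10, adjusted p = 0.0281) was not past the threshold with DESeq2 (adjusted p = 0.0541), without M0 replicate 2 (adjusted p = 0.123) or 3 (0.0883), or without IFNγ + LPS replicate 2 (0.174) or 3 (0.0811).

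The fall of these ligands depends on the scaling in size but not in direction. With library size alone in place of TMM, the median of all genes tested in IFNγ + LPS against M0 was −0.4628, and 2340 genes rose and 7002 fell, against 4361 and 4254 with TMM. The log2 fold changes were then −0.71 for Ccl3, −1.15 for Ccl4, −1.68 for Ccl6 and −1.45 for Ccl9.

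**Figure D2:**
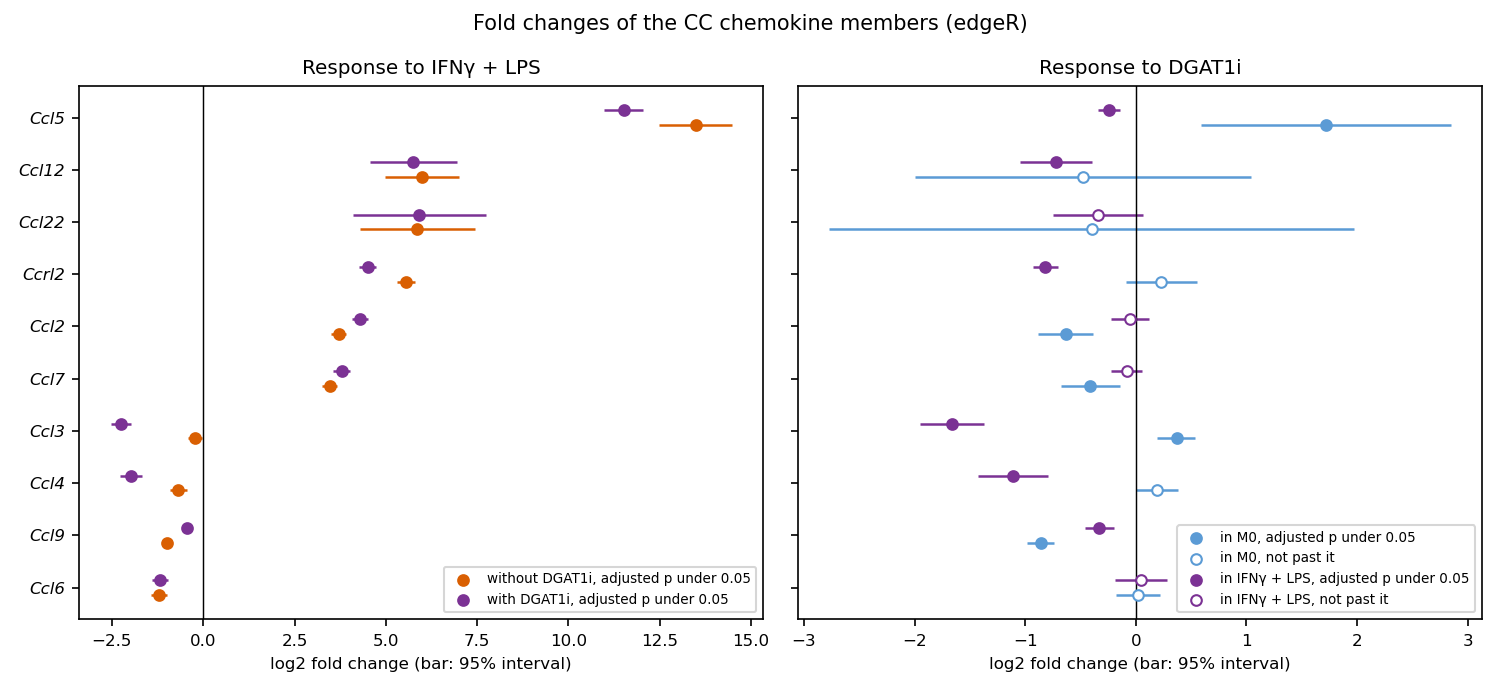
Log2 fold changes of the members, with the response to IFNγ + LPS on the left (with and without DGAT1i) and the response to DGAT1i on the right (in M0 and in IFNγ + LPS), bars giving the 95% interval and filled points an adjusted p under 0.05. In IFNγ + LPS, 6 members lie below 0 with a filled point, led by Ccl3 at −1.66, and Ccl3 lies at 0.37 in M0.

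DGAT1i given with IFNγ + LPS lowered 6 of the 10 members and raised 0. Of all genes tested, 16.3% fell and 13.5% rose, 29.8% in all. The 6 were Ccl3, Ccl4, Ccl5, Ccl9, Ccl12 and Ccrl2, and their groups did not overlap, beside 21.6% of all genes lower without overlap. Over the members, the median log2 fold change was −0.33 against −0.01 over all genes. Ccl2, Ccl6, Ccl7 and Ccl22 did not pass the test.

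Ccl3 and Ccl4, the macrophage inflammatory proteins, fell most. Ccl3 was at 10.3, 10.8 and 9.34 CPM with the inhibitor, 68.3% lower than in IFNγ + LPS alone (log2 fold change −1.66, SE 0.15, adjusted p = 7.74e-15). Ccl4 was at 9.47, 8.97 and 8.64 CPM, 53.7% lower (log2 fold change −1.11, SE 0.16, adjusted p = 5.86e-08). These levels were also below those of M0. Ccrl2 was at 159, 169 and 157 CPM, 43.2% lower (log2 fold change −0.82, SE 0.06, adjusted p = 4.46e-17). Ccl12 was at 54.1, 48.2 and 39.2 CPM, 39.4% lower (log2 fold change −0.72, SE 0.15, adjusted p = 0.00184). It was the only one of the CCR2 ligands whose test passed.

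Smaller decreases were measured for Ccl9 and Ccl5. Ccl9 was at 155, 145 and 171 CPM (log2 fold change −0.33, SE 0.07, adjusted p = 9.55e-05). Ccl5 was at 2470, 2412 and 2395 CPM, 15.5% lower (log2 fold change −0.24, SE 0.05, adjusted p = 1.07e-04). The summed dendritic cell genes were lower, and the neutrophil genes S100a8, S100a9, Ngp and Ltf higher, in the same libraries, and of the 7 macrophage genes Adgre1, Itgam and Fcgr1 were lower, Cd68 and Cd14 higher, and 2 overlapped. The part of any of these in the changes was not tested. Itgam was at 117 to 137 CPM in IFNγ + LPS and 82.9 to 88.2 CPM with DGAT1i. S100a8 was at 8.28 to 10.5 CPM in IFNγ + LPS and 29.7 to 41.6 CPM with DGAT1i.

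The remaining 4 members did not pass the test, and their intervals bound the change. Ccl2 was at 710, 615 and 550 CPM with the inhibitor, a log2 fold change of −0.05 (95% interval −0.22 to 0.12; adjusted p = 0.683). Ccl7 was at 166, 151 and 154 CPM (log2 fold change −0.08, 95% interval −0.22 to 0.06; adjusted p = 0.421). Ccl6 was at 153, 140 and 128 CPM (log2 fold change 0.05, 95% interval −0.19 to 0.28; adjusted p = 0.799). Ccl22 was at 8.44, 7.72 and 12.4 CPM (log2 fold change −0.34, 95% interval −0.75 to 0.07; adjusted p = 0.215). For Ccl22 the interval is wide, and a moderate decrease was not detectable at this depth and spread between libraries.

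In M0, DGAT1i raised Ccl3 and lowered Ccl2, Ccl7 and Ccl9, 1 and 3 of the 10 members, and 5 did not pass the test. Ccl5 passed too, but on 5 and 18 reads, and it passed the filter on low counts only through the stimulated groups, so that it is not counted here. Of all genes tested, 11.0% rose and 13.4% fell, 24.4% in all. With library size alone, 885 genes rose and 2092 fell in this comparison, against 1298 and 1571 with TMM. The groups of 1 member, Ccl3, lay higher and of 3 lower without overlap, beside 17.9% and 19.9% of all genes. Ccl5 lay higher without overlap too, but is not counted for the same reason. The median over all 10 members, with Ccl5 and the sparse Ccl12 and Ccl22 included, was −0.19, and 0.00 over all genes. The summed neutrophil genes were lower with DGAT1i without overlap (31.6 to 38.7 CPM in M0, 22.9 to 29.0 CPM with DGAT1i). Of the 7 macrophage genes, Adgre1, Csf1r and Cd14 were lower, Cd68 and Mertk higher, and 2 overlapped, with Cd14 at 156 to 187 CPM in M0 and 89.9 to 103 CPM with DGAT1i and Mertk at 65.4 to 78.5 and 99.8 to 113 CPM. The part of these genes in the changes below was not tested.

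Ccl9 fell most among the abundant members. It was at 209, 208 and 227 CPM with the inhibitor, 44.9% lower than in M0 alone (log2 fold change −0.86, SE 0.06, adjusted p = 1.19e-16). Its neighbour Ccl6 was at 347, 341 and 269 CPM (log2 fold change 0.02, 95% interval −0.18 to 0.22; adjusted p = 0.912). Ccl2 was at 31.9, 31.1 and 32.3 CPM, below every M0 library (log2 fold change −0.63, SE 0.12, adjusted p = 4.82e-04). Ccl7 was at 12, 10.6 and 11.3 CPM (log2 fold change −0.41, SE 0.13, adjusted p = 0.0187). The call for Ccl7 was lost without M0 replicate 2 (log2 fold change −0.16, adjusted p = 0.496) and without M0 with DGAT1i replicate 2 (−0.37, adjusted p = 0.0768).

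Ccl3 rose in M0. It was at 46.0, 53.8 and 47.4 CPM with the inhibitor, above every M0 library (log2 fold change 0.37, SE 0.09, adjusted p = 8.05e-04). Ccl4 was at 39.2, 35.2 and 32.5 CPM (log2 fold change 0.19, 95% interval −0.00 to 0.38; adjusted p = 0.159). Ccl5 had 7, 6 and 5 reads, against 2, 2 and 1 in M0. Its ratio of scaled reads was 3.51 (95% counting interval 1.25 to 12.1; adjusted p = 0.0299). This call rests on few reads. It was lost without M0 replicate 1 (adjusted p = 0.0512), 2 (0.0644) or 3 (0.111), without M0 with DGAT1i replicate 1 (0.0913) or 2 (0.0682), and with DESeq2 (0.0723) or no filter on low counts (0.054).

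The remaining members gave no call in M0. Ccrl2 was at 8.24, 7.24 and 5.94 CPM with the inhibitor (log2 fold change 0.23, 95% interval −0.09 to 0.55; adjusted p = 0.347). Ccl12 had 26 reads in M0 and 19 with the inhibitor (adjusted p = 0.687). Ccl22 had 4 and 3 reads (adjusted p = 0.834), too few for a change to be detectable at this depth.

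The response to DGAT1i differed between resting and activated macrophages for 5 of the 10 members, as tested by the difference of the responses (IFNγ + LPS minus M0), with Ccl5 not counted for its few reads in the resting groups. It was higher in IFNγ + LPS for 2 members and lower for 3, whereas 8.66% of all genes were higher and 9.80% lower, 18.5% in all. With library size alone, 1229 genes were higher and 882 lower, against 1019 and 1152. Over all 10 members, with Ccl5 and the sparse Ccl12 and Ccl22 included, the median difference was −0.11, against −0.01 over all genes. Over the 9 ligands among them it was 0.03, so that its sign depends on the members taken.

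Ccl3 gave the largest difference, rising in M0 and falling in IFNγ + LPS, with a difference of −2.03 on the log2 scale (SE 0.17, adjusted p = 1.80e-14). Ccl4 (−1.30, SE 0.19, adjusted p = 2.06e-07) and Ccrl2 (−1.05, SE 0.17, adjusted p = 4.55e-06) also differed, and neither passed the test in M0. Ccl9 fell in both and by more in M0, a difference of 0.53 (SE 0.09, adjusted p = 9.27e-06). Ccl2 fell in M0 and did not pass the test in IFNγ + LPS, a difference of 0.58 (SE 0.14, adjusted p = 0.00683). The difference for Ccl5, −1.97 (SE 0.57, adjusted p = 0.0141), is given as a value only, since it rests on the 5 and 18 reads of the resting groups, and it was not past the threshold without M0 replicate 3 (adjusted p = 0.0614) or M0 with DGAT1i replicate 1 (0.0515). For Ccl7 the difference was 0.33 (95% interval 0.03 to 0.64; adjusted p = 0.122), and it passed without M0 replicate 1 (adjusted p = 0.0483) or 3 (0.0386). Ccl6 differed by 0.03 (95% interval −0.28 to 0.33; adjusted p = 0.930). The differences of Ccl12 (−0.24) and Ccl22 (0.06) have intervals over 2 log2 units wide and give no reading.

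With DGAT1i present throughout, IFNγ + LPS raised 6 members and lowered 4, beside 35.3% and 35.3% of all genes, 70.6% in all. Of the 6, Ccl5, Ccl12 and Ccl22 passed the filter on low counts only through the stimulated groups, so that here too they could only come out higher. None of the 10 overlapped between the groups, beside 36.1% of all genes higher and 36.5% lower without overlap. This comparison shares no library with IFNγ + LPS against M0. The summed neutrophil genes went from 22.9 to 29.0 CPM up to 63.0 to 81.0 CPM, whereas they were lower in IFNγ + LPS than in M0. The dendritic cell genes went from 0.264 to 0.568 CPM up to 3.55 to 4.44 CPM. The summed macrophage genes went from 4107 to 4188 CPM up to 5066 to 5488 CPM. Adgre1, Mertk, Fcgr1 and Cd14 were higher. Csf1r, Cd68 and Itgam were lower without overlap, with Itgam at 163 to 173 CPM and then 82.9 to 88.2 CPM. The part of these lists in the changes was not tested. Here Ccl3 fell by 2.26 on the log2 scale (SE 0.14, adjusted p = 8.59e-24) and Ccl4 by 1.98 (SE 0.15, adjusted p = 1.09e-19). Ccl2 rose by 4.30 (SE 0.10, adjusted p = 2.16e-17) and Ccrl2 by 4.50 (SE 0.12, adjusted p = 3.39e-44). Ccl9 fell by 0.45 (SE 0.06, adjusted p = 2.08e-08). With library size alone, the median of all genes in this comparison was −0.432, with 2333 genes higher and 6799 lower, against 4152 and 4151.

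The make-up of the CC ligand mRNAs changed from a mixture led by Ccl6 and Ccl9 to one led by Ccl5. In IFNγ + LPS, Ccl5 made up 70.1% ± 1.60 of the summed CPM per kb, Ccl2 13.4% ± 0.875, Ccl7 4.86% ± 0.173 and Ccl12 3.42% ± 0.121 (SD, n = 3). With DGAT1i, Ccl5 made up 67.5% ± 1.26 and Ccl2 14.6% ± 1.38. Ccl8, a CC ligand outside the members, went from 3.13% ± 0.311 in IFNγ + LPS to 5.92% ± 0.447 with DGAT1i, where it stood next to Ccl7 at 5.23% ± 0.149. In M0 with DGAT1i, Ccl6 made up 42.9% ± 3.25 and Ccl9 17.1% ± 2.01, against 37.6% and 27.4% in M0. The members took 0.382% ± 0.0136 of the reads of a library in IFNγ + LPS and 0.319% ± 0.0115 with DGAT1i, and 0.10% ± 0.00649 in M0. These shares were not tested.

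**Figure D3:**
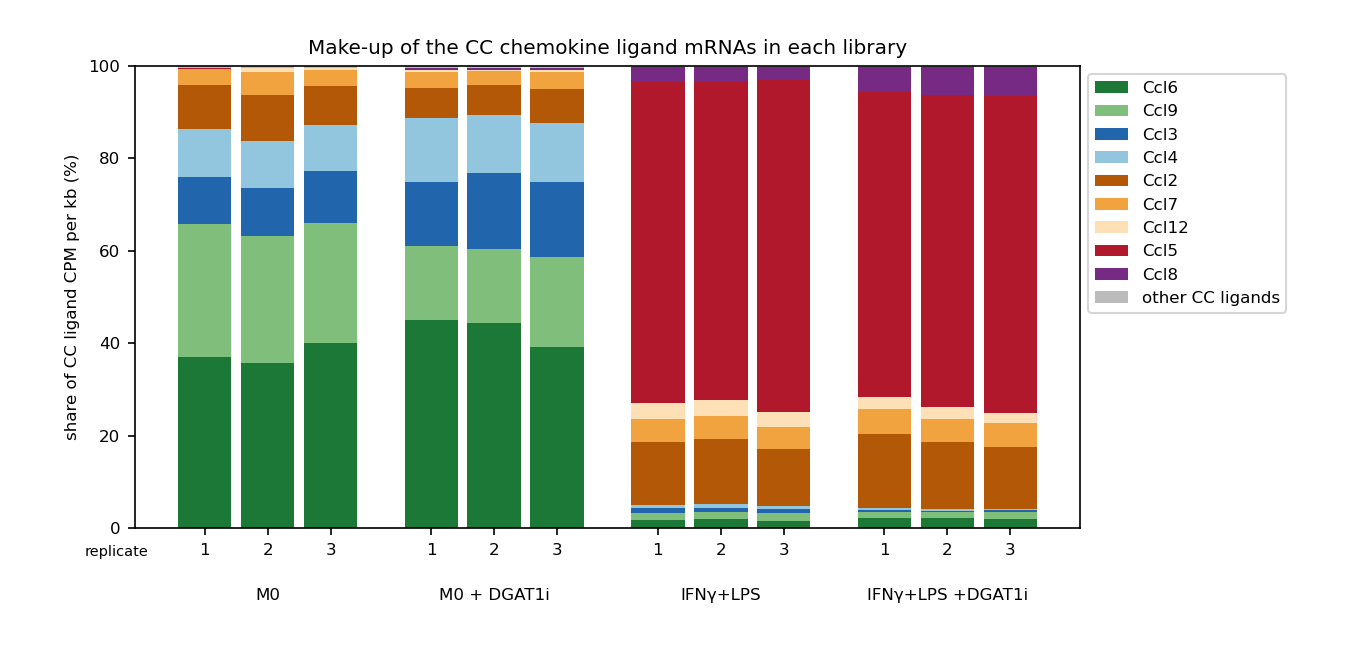
Share of each CC ligand in the summed CPM per kb of all CC ligands, in percent, as a stacked bar for each of the 12 libraries. Ccl6 and Ccl9 fill most of the bars of both resting groups, and Ccl5 fills 66.2% to 71.9% of those of both stimulated groups.

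Ratios of reads within a library do not depend on the scaling. Ccl9 reads per Ccl6 read were 1.31, 1.31 and 1.10 in M0 and 0.600, 0.611 and 0.843 with DGAT1i, with no overlap. In IFNγ + LPS they were 1.32, 1.38 and 1.64, and with DGAT1i 1.01, 1.03 and 1.34, so that the groups overlapped there. Ccl12 reads per Ccl2 read were 0.122, 0.115 and 0.125 in IFNγ + LPS and 0.0762, 0.0784 and 0.0714 with DGAT1i. Ccl3 reads per Ccl4 read were 2.18, 1.38 and 1.55 in IFNγ + LPS and 1.09, 1.21 and 1.08 with DGAT1i.

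**Figure D4:**
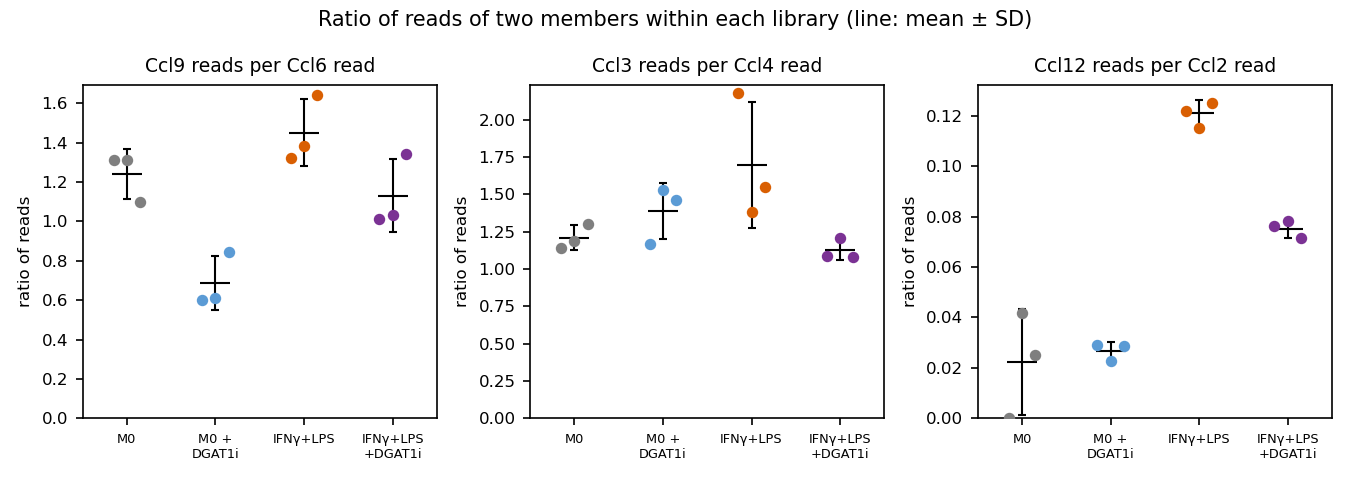
Ratio of the reads of a pair of members within each library, with points for the 3 libraries of a group and lines for mean and SD. Ccl9 per Ccl6 lies at 0.600 to 0.843 in M0 with DGAT1i and above 1 in the other 3 groups.

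Other CC ligands were taken from a list of 14, of which 3 had enough reads to be tested and 9 were at 0 in all libraries. Ccl8, a further ligand of this family that lies close to the CCR2 ligands, had 4 reads in M0 and stood at 71.4, 70.9 and 62.0 CPM in IFNγ + LPS. With DGAT1i it was at 108, 115 and 117 CPM, above every library without (log2 fold change 0.73, SE 0.08, adjusted p = 3.15e-11). Its direction under DGAT1i was thus opposite to that of the 6 members that fell. Ccl25 rose with IFNγ + LPS (log2 fold change 0.88, SE 0.19, adjusted p = 3.50e-05).

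Of 10 CC chemokine receptors, 4 were tested, and 3 were at 0 in all libraries. IFNγ + LPS raised 2 and lowered 2, beside 37.1% and 36.2% of all genes. Ccr7 passed the filter on low counts only through the stimulated groups and Ccr3 only through the resting groups, so that their directions here were set by the filter. Ccr1, the receptor for Ccl3, Ccl5, Ccl6 and Ccl9, rose (log2 fold change 1.05, SE 0.13, adjusted p = 5.49e-07). Ccr7, which guides cells to lymph nodes, had 0 reads in M0 and 53 in IFNγ + LPS, at least 24.4-fold higher when M0 is set to 3 reads in all. Ccr2, the receptor for Ccl2, Ccl7 and Ccl12, fell (−1.40, SE 0.14, adjusted p = 1.86e-13), and Ccr3 fell by 3.63 (SE 0.30, adjusted p = 1.20e-21).

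DGAT1i changed 2 of these 4 receptors in M0 and 1 in IFNγ + LPS, beside 24.4% and 29.8% of all genes. Ccr7, with 0 reads in M0 and 1 in M0 with DGAT1i, had too few reads to show a change in M0. Ccr2 was at 30.1, 31.8 and 30.2 CPM in M0 and at 9.56, 9.37 and 13.9 CPM with DGAT1i, all below M0 (log2 fold change −1.48, SE 0.13, adjusted p = 3.55e-14). Ccr1 rose (0.64, SE 0.13, adjusted p = 8.12e-04) in the same comparison. In IFNγ + LPS, Ccr1 rose (0.39, SE 0.12, adjusted p = 0.0185). The call was lost without IFNγ + LPS replicate 1 (adjusted p = 0.0531) and without IFNγ + LPS with DGAT1i replicate 1 (0.0525), 2 (0.0591) or 3 (0.0757). Of the atypical receptors Ackr1, Ackr2 and Ackr4, 0 of 3 could be tested.

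**Figure D5:**
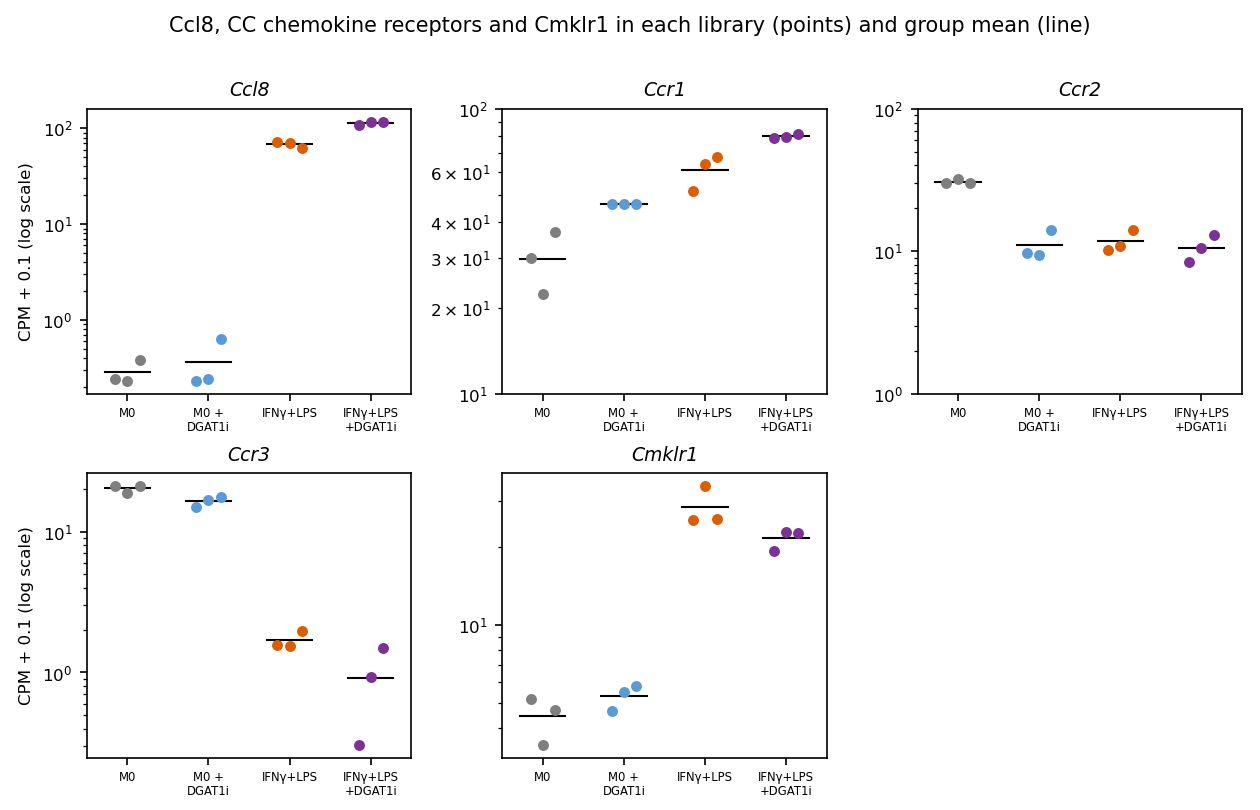
Levels of Ccl8, 3 CC chemokine receptors and the chemerin receptor gene Cmklr1 in each library, as CPM plus 0.1 on a log scale that differs between panels, with points for libraries and a line at the group mean. Ccr2 lies at 9.37 to 13.9 CPM in M0 with DGAT1i, below the 30.1 to 31.8 CPM of M0, and Ccl8 in IFNγ + LPS with DGAT1i lies above IFNγ + LPS alone.

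Of the chemerin genes, Cmklr1, the signalling receptor, was the only 1 of 3 tested. It rose with IFNγ + LPS (log2 fold change 2.72, SE 0.18, adjusted p = 5.60e-22). With DGAT1i it was at 19.1, 22.7 and 22.6 CPM against 25.3, 34.2 and 25.5 CPM (−0.41, SE 0.13, adjusted p = 0.0140), a call lost without IFNγ + LPS replicate 2 (adjusted p = 0.230), without IFNγ + LPS with DGAT1i replicate 1 (0.0874) and with DESeq2 (0.0657). Chemerin itself, Rarres2, had 1 read in all libraries.

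The proteins that control the decay of chemokine mRNAs were a list of 5, all tested. Zc3h12a, an RNase that degrades inflammatory mRNAs, rose with IFNγ + LPS (log2 fold change 2.41, SE 0.10, adjusted p = 4.07e-31) and Zfp36, which binds AU-rich elements, rose (1.38, SE 0.17, adjusted p = 7.15e-05). Zfp36l1 fell (−2.78, SE 0.15, adjusted p = 5.91e-27), Zfp36l2 fell (−0.36, SE 0.06, adjusted p = 9.15e-07), and Elavl1 did not pass (0.01, 95% interval −0.14 to 0.16). DGAT1i in IFNγ + LPS lowered Zc3h12a (−0.36, SE 0.08, adjusted p = 2.90e-04) and raised Zfp36l2 (0.37, SE 0.06, adjusted p = 8.47e-06), and in M0 it raised Zfp36l2 alone (0.32, SE 0.06, adjusted p = 1.86e-05). Thus 2 of 5 rose and 2 fell with IFNγ + LPS, beside 37.1% and 36.2% of all genes. With DGAT1i, 1 rose and 1 fell in IFNγ + LPS, beside 13.5% and 16.3%, and 1 rose in M0, beside 11.0%.

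The genes whose levels followed a member most closely over the 12 libraries were found by Pearson's r on log2 CPM, as a description, since the 12 libraries fall into 4 groups and share their treatments. For Ccl3 they were Dock10 (r = 0.979), Lair1 (0.976) and Nupl2 (0.969). For Ccl4 they were Itgam (r = 0.993), Ddx21 (0.983) and Qsox2 (0.981). For Ccl9 they were Dpysl2 (r = 0.984), Poc1a (0.980) and Donson (0.973). For the induced Ccl5 they were Ifi204, H2-K1 and Socs1 (r = 0.999 each), and for Ccrl2 Gm12185, Clcn7 (r = 0.999 each) and Serpina3f (0.998). For Ccl2 they were Gm49342, Ifitm3 and Ugcg, and for Ccl7 Pou3f1, Gm12250 and Cst7 (r = 0.998 each). For Ccl12 they were Dusp28 (r = 0.990), Gm42547 and Psmc4 (0.988 each), and for Ccl22 Oas1b (0.996), Selenow and Psmb7 (0.995 each). Each of these correlations is set mainly by the differences between groups.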

How the data were processed

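RNA of 12 libraries, 4 groups of 3, was sequenced on an Illumina instrument and counted by the authors, who deposited raw read counts per gene without normalization. The labels name a NEBNext low-input kit and the paper a stranded TruSeq kit, so strand is uncertain. GRCm38 and DESeq2 are in the submitters' processing notes; aligner, counter and annotation release were not given in the sources used here. Of 47937 genes, 25746 had 0 reads throughout, and 713 had no symbol in GENCODE release M21.

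Counts were analysed with edgeR 4.0.16 in R 4.3.3: filterByExpr (11760 genes kept), TMM, and glmQLFit (robust) with 1 mean per group over 12 libraries. Standard errors and intervals are Wald values. Members and lists were chosen with earlier results of these data known. Named genes are all 10 members, those of the related lists chosen from the ones with reads, and the 3 genes most alike (average log2 CPM of at least 2) for each member but Ccl6. Counting intervals are exact at 95%. The self-test used simulated counts. Alternatives were RLE factors, library size only, other filters, DESeq2 1.42.0, a threshold of 0.01, only the 6 libraries compared, a replicate block and each library left out. Copies were searched with blastn 2.17.0. Protein sequences were not used here, and 2 genes are not reported here.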

Additional observations from a re-analysis of the deposited data

Results flagged for a closer look

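The response to DGAT1i differed between IFNγ + LPS and M0, by a test of the difference itself (edgeR's quasi-likelihood test), for 5 members and 2 related genes, where 18.5% of all genes differed. The differences, IFNγ + LPS minus M0 on the log2 scale, were 0.58 for Ccl2, −2.03 for Ccl3, −1.30 for Ccl4, 0.53 for Ccl9 and −1.05 for Ccrl2. Ccl5 (−1.97) passed as well but is not counted, since it rests on 5 and 18 reads in the resting groups and its call was lost without M0 replicate 3 or M0 with DGAT1i replicate 1. Among related genes, Ccr2 differed by 1.33 (adjusted p = 1.03e-05), falling in M0 but not passing the test in IFNγ + LPS. Zc3h12a differed by −0.46 (adjusted p = 0.0129), lost without M0 with DGAT1i replicate 3 (adjusted p = 0.0632). Groups of 3 libraries were not searched for outlying samples.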

How the results depend on the processing

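Over the 10 members and 5 comparisons, 378 of 387 values under other settings and 568 of 600 values with a library left out kept direction and side of the threshold. The count of members that DGAT1i raised in M0, with Ccl5 included, fell from 2 to 1 with no filter on low counts, with DESeq2, with a threshold of 0.01 and with only the 6 libraries compared, and ranged from 1 to 2 with single libraries left out. The member lost with no filter, with DESeq2, at 0.01 and with single libraries left out was Ccl5, which did not pass the filter with only the 6 libraries compared. The count that fell with IFNγ + LPS went from 4 to 3, without Ccl3, with DESeq2, at 0.01 and without 4 single libraries. Directions turned only in results that had passed no test. With library size alone Ccl6 for DGAT1i in M0 was −0.04, and without the filter its difference between the DGAT1i responses was −0.01. With single libraries left out, the log2 fold change of Ccl2 for DGAT1i in IFNγ + LPS ranged from −0.15 to 0.03, that of Ccl6 from −0.02 to 0.10, and in M0 that of Ccl6 from −0.05 to 0.13 and of Ccl12 from −1.03 to 0.57. The difference between the responses ranged from −1.30 to 0.30 for Ccl12, from −0.34 to 0.59 for Ccl22 and from −0.09 to 0.09 for Ccl6. The cause of these turns was not tested. Pairing of the samples by replicate number was weak at most (correlation of deviations −0.0217 to 0.0687, median 0.0116, over 18 pairs). With the replicate number as a block, 8635, 3568, 2959, 8310 and 2268 genes passed for activation, for DGAT1i in activated and in resting cells, for activation with DGAT1i throughout and for the difference, against 8615, 3508, 2869, 8303 and 2171 without it, and the members' counts were as before. Depth limits Ccl5, Ccl12 and Ccl22 in the resting groups.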

Other observations

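Ccl24, a ligand of CCR3, had too few reads to be tested, with 1 read over the M0 libraries, 21 in IFNγ + LPS, 5 in IFNγ + LPS with DGAT1i and 1 in M0 with DGAT1i. Ccl27a was tested and did not pass in any of the 5 comparisons, with 37 reads over the M0 libraries and 15 in IFNγ + LPS.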
